A study of Homo sapiens with 60 samples.

Results

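The genes described here are 10 early response genes: the early growth response genes EGR1, EGR2 and EGR3, the Krüppel-like factor genes KLF2, KLF4, KLF6 and KLF10, the immediate early response genes IER2 and IER5, and MYC. They were taken by symbol from a table of 58395 Ensembl gene identifiers, where each symbol matched a single row. All 10 were among the 18985 genes that passed the filter on low counts and were tested. RNA had been sequenced from 60 libraries of HEK293A, a human embryonic kidney cell line, in 15 groups of 4. Every cell, the controls included, carried a CRISPR/Cas9 knockout of TDP1, the tyrosyl-DNA phosphodiesterase that releases trapped topoisomerase I from DNA ends, and the knockout was represented by 3 lines (C6, F7 and G6) that are 1 clone each. Each clone was given the combination of 100 nM topotecan and 5 µM OL9-119 (the label names no DMSO), 100 nM topotecan in 0.1% DMSO, 5 µM OL9-119 dissolved in 0.1% DMSO, 0.1% DMSO alone, or no treatment, and the treatment time was 5 to 5.5 h. Topotecan traps topoisomerase I on DNA. OL9-119 is known here by its code name only. Libraries of cells with intact TDP1 were not analysed here, so no value below measures the knockout itself. The labels number the replicates as biological without saying what separates them, so the p-values measure the spread between these samples, part of which may be technical.

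Early response genes are transcribed within minutes of a stimulus without new protein synthesis, and their mRNAs are short-lived. Growth factor and stress signals reach EGR1, EGR2, EGR3 and IER2 largely through MAP kinases that phosphorylate ternary complex factors bound with serum response factor at CArG boxes in the promoters. Many of the products are transcription factors with zinc fingers that bind GC-rich DNA, and MYC drives growth and ribosome production as a heterodimer with MAX.

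EGR1 and IER2 rose most with topotecan. IER5, the highest of the set per length of exon, did not pass with any treatment against DMSO in the fit of group means alone. The 250 bases before the start of EGR1, IER2 and IER5, from RefSeq on GRCh38.p14, are therefore shown. In hg38 they are chr5:138465229-138465478, chr19:13150161-13150410 and chr1:181088450-181088699, all on the plus strand, and capitals mark CArG boxes and the EGR site GCGNGGGCG.
EGR1: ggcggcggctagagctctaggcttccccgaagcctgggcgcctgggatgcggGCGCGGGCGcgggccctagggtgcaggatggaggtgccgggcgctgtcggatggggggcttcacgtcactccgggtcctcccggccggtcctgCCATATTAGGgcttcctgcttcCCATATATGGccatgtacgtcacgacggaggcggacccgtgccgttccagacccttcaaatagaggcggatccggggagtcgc
IER2: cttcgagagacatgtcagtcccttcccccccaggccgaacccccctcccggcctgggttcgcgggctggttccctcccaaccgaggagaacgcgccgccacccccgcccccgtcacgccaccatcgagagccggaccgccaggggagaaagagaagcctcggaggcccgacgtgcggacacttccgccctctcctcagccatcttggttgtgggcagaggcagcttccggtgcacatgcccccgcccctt
IER5: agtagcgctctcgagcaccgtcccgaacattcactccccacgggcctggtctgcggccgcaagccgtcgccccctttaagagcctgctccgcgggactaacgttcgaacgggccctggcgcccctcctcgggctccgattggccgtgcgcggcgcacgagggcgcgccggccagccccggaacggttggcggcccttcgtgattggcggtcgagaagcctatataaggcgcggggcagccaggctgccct
RefSeq promoters were matched for 7 of the 10 genes (EGR3, KLF10 and MYC were not among them), and both strands were searched for 7 motifs. The EGR1 window held 2 CArG boxes, starting 105 and 83 bases before the start, and 1 EGR site 198 bases before it. Of 27305 promoter windows of the same length, 1.14% held a CArG box and 8.25% held an EGR site. KLF2, KLF4 and KLF6 had 1 EGR site each. The windows of EGR2, IER2 and IER5 held none of the 7 motifs, the others being the cyclic AMP response element TGACGTCA (in 1.77% of windows), the AP-1 site TGANTCA (6.60%), the NF-kB site (9.57%), the ATF4 composite site TGATGNAA (3.19%) and the TATA box TATAAA (11.1%). A match is a description of these letters and not of binding.

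EGR1 (ENSG00000120738, chr5:138465490-138469315 on the plus strand, all positions in hg38) encodes a zinc finger activator of growth and stress programmes. EGR2 (ENSG00000122877, chr10:62811996-62919900, minus strand) encodes a regulator of myelination and hindbrain segmentation, and EGR3 (ENSG00000179388, chr8:22687659-22693302, minus strand) a factor needed for muscle spindle formation. KLF2 (ENSG00000127528, chr19:16324817-16327874, plus strand) encodes a factor of endothelial and T cell quiescence, and KLF4 (ENSG00000136826, chr9:107484852-107490482, minus strand) one of the reprogramming factors, as is MYC (ENSG00000136997, chr8:127735434-127741434, plus strand). KLF6 (ENSG00000067082, chr10:3775996-3785281, minus strand) encodes a widely expressed factor with growth-suppressing roles, and KLF10 (ENSG00000155090, chr8:102648779-102655902, minus strand) a repressor induced by TGF-beta. IER2 (ENSG00000160888, chr19:13150415-13154908, plus strand) encodes a small nuclear protein, and IER5 (ENSG00000162783, chr1:181088712-181092899, plus strand) a protein that activates heat shock factor HSF1 in human cells. Except for EGR2, whose annotated span is 108 kb, each spans under 10 kb. Antisense genes overlap EGR3 and IER2, but they averaged 1.03 and 1.62 counts per library.

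Library totals ran from 4623685 to 20932497 counts. Thinned to a common depth just under the smallest library, 14 libraries had 17454 to 19345 genes with a count, and 20160 to 23640 were detected in the remaining 46. The 14 low-detection libraries were 10 of clone C6 and 4 of clone G6, and by treatment 4 of the combination, 2 of topotecan, 3 of OL9-119, 3 of DMSO and 2 untreated. All 10 markers listed for HEK293 cells were counted (KRT8 averaged 698 and VIM 448 CPM, a count scaled by the TMM-adjusted library total), whereas PTPRC of blood cells averaged 0.0158 CPM and the hepatocyte markers summed to at most 1.29 CPM. COL1A1, listed for fibroblasts, averaged 27.0 CPM. Every library held reads of TDP1 itself (17.8 to 42.3 CPM), which does not test an edited exon because reads were counted over the whole gene.

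Per kilobase of exon, the 12 DMSO libraries placed the genes in 4 tiers. IER5 averaged 35.6 ± 8.06 CPM per kb, IER2 30.1 ± 8.87 and KLF10 28.3 ± 2.02 CPM per kb (SD, n = 12), and these neighbours differed by less than the spread of IER2. KLF4 (14.7 ± 4.08), EGR1 (14.4 ± 4.54) and KLF6 (13.98 ± 1.65 CPM per kb) came next and were within their spread of each other. MYC averaged 5.77 ± 1.196 CPM per kb. KLF2 (2.04 ± 0.591), EGR3 (1.97 ± 0.596) and EGR2 (1.15 ± 0.415 CPM per kb) were the lowest. In counts, EGR2 and KLF2 had a median of 55.5 and 52.0 counts per library, and the other 8 genes had medians of 102.5 (EGR3) to 1664.0 (IER5). EGR2 and KLF2 also carry the widest intervals below.

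**Figure D1:**
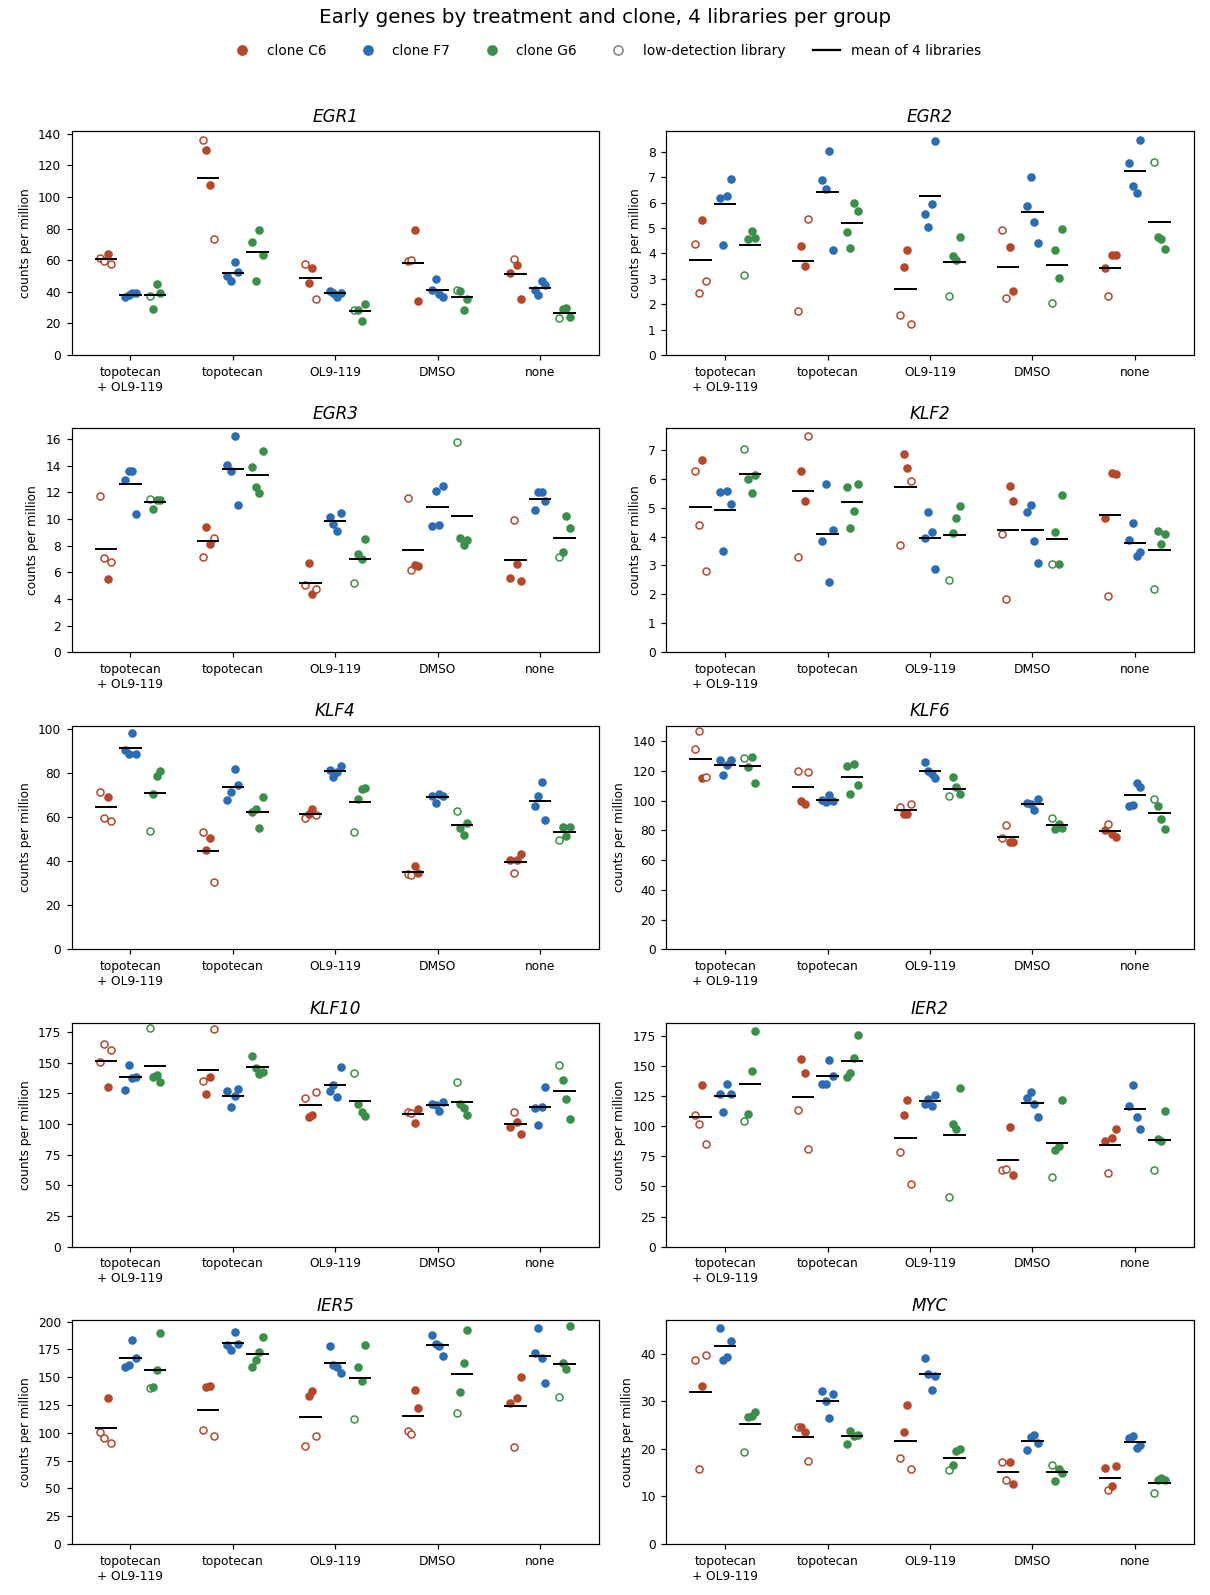
Level of each of the 10 genes in every library, in CPM (vertical axis, from 0) by treatment (horizontal axis), with clones C6, F7 and G6 side by side, a line at the mean of the 4 libraries and open symbols for low-detection libraries. EGR1 in topotecan-treated C6 libraries reached 73.7 to 136 CPM, KLF6 in combination libraries was never below 112 CPM, and the lowest IER2 value of most groups in C6 and G6 is an open symbol.

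The comparison of topotecan with DMSO asks which of these genes topotecan moves in cells that lack TDP1. EGR1, IER2, MYC, KLF6, KLF10 and KLF4 rose, 6 of the 10, and none fell. EGR1 rose most, by 0.70 ± 0.10 on the log2 scale (SE; 1.63-fold), then IER2 by 0.62 ± 0.13 (1.54-fold) and MYC by 0.54 ± 0.10 (1.46-fold). Over all genes tested 15.3% were called (5.99% higher, 9.35% lower). Most of the set are short genes, and of 2857 protein-coding genes spanning under 10 kb 12.6% were called higher and 1.12% lower. The median log2 change was 0.28 over the 10 genes, 0.12 over the short genes and 0.02 over all genes. In bulk RNA, a change in every cell and a change in how many cells express a gene cannot be told apart.

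In clone C6, EGR1 had 136, 129.7, 108 and 73.7 CPM with topotecan, against 59.3, 59.9, 79.1 and 34.4 CPM in DMSO. In clone G6 it had 71.6, 46.9, 79.2 and 63.1 CPM with topotecan, against 41.1, 40.8, 28.4 and 35.6 CPM in DMSO. In clone F7 the 4 values were 50.2, 46.9, 58.5 and 52.5 CPM with topotecan, against 41.3, 47.9, 38.8 and 36.4 CPM in DMSO. Topotecan and DMSO libraries did not overlap in G6, 1 topotecan library fell below the highest DMSO library in C6 and in F7, and C6 held the highest values. The adjusted p of EGR1 was 1.84e-07 (edgeR quasi-likelihood F test, Benjamini-Hochberg over 18985 genes, 95% interval of the log2 change 0.50 to 0.90).

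IER2 had 141, 144, 157 and 175 CPM in topotecan-treated G6 libraries, against 58.2, 80.1, 83.4 and 121.98 CPM in DMSO. In F7 the values were 134, 135, 155 and 141 CPM with topotecan, against 123.6, 129, 118 and 107 CPM in DMSO. The groups did not overlap in either clone, and in C6 they did (114, 156, 144 and 81.4 CPM, against 63.4, 64.4, 99.2 and 59.9 CPM). The adjusted p of IER2 was 2.10e-04 with the edgeR quasi-likelihood test. The level of IER2 moved with the number of detected genes in a library, as did those of 7 other genes of the set. With detected genes as a term in the model its change was 0.54 (adjusted p = 2.09e-10).

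MYC in F7 had 32.2, 29.96, 26.5 and 31.6 CPM with topotecan, against 19.8, 22.5, 22.9 and 21.3 CPM in DMSO. In G6 it had 21.0, 23.8, 22.8 and 22.9 CPM with topotecan, against 16.5, 13.2, 15.9 and 14.9 CPM in DMSO. MYC separated the groups without overlap in all 3 clones, the C6 values being 24.6, 24.6, 23.6 and 17.4 CPM with topotecan, against 17.3, 13.5, 17.3 and 12.7 CPM in DMSO. The adjusted p was 1.78e-05 for MYC with edgeR.

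KLF6 rose by 0.34 ± 0.05 (adjusted p = 2.80e-08, edgeR) and KLF10 by 0.28 ± 0.06 (adjusted p = 3.44e-04). KLF6 had 119.8, 99.8, 98.04 and 119 CPM with topotecan in C6, against 75.1, 83.7, 72.1 and 72.3 CPM in DMSO. In F7 KLF6 had 100.2, 99.2, 104.03 and 99.4 CPM with topotecan, against 98.6, 97.4, 93.4 and 101.2 CPM in DMSO. The groups were apart in C6 and in G6 (123.5, 105, 124.9 and 110.3 CPM, against 88.4, 80.9, 84.6 and 81.8 CPM) and overlapped in F7. KLF10 had a lowest, median and highest of 114, 137 and 177 CPM over the 12 topotecan libraries, against 100.6, 113 and 134 CPM in DMSO.

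KLF4 passed narrowly, at 0.19 ± 0.07 (adjusted p = 0.0316, edgeR). The call was lost when only the groups compared were fitted (0.0509) and when any of 7 libraries was left out (C6 topotecan replicates 1, 2 and 3, F7 topotecan replicate 3, G6 topotecan replicate 4, and G6 DMSO replicates 2 and 3), with adjusted p of 0.0504 to 0.0856. EGR2 (0.28 ± 0.17), EGR3 (0.28 ± 0.12, adjusted p = 0.0915), KLF2 (0.24 ± 0.17) and IER5 (0.08 ± 0.09, interval -0.09 to 0.25) did not pass. EGR3 passed without the low-detection libraries (0.48, adjusted p = 4.81e-05 in edgeR) and without DMSO replicate 1 of C6 (0.37, 0.0153) or of G6 (0.38, 0.0107), the libraries in which it stood at 11.6 and 15.8 CPM.

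Within C6, 5 genes rose with topotecan (EGR1, KLF6, KLF10, IER2 and MYC), where 4.71% of all genes were called (1.58% higher). Within G6, 5 rose (again EGR1, KLF6, KLF10, IER2 and MYC), where 8.72% were called (2.32% higher). In F7 none of the 10 passed (edgeR, smallest adjusted p 0.154, 1 gene at an unadjusted p under 0.05), and 1.94% of all genes did. EGR1 changed by 0.94 ± 0.17 in C6 and 0.83 ± 0.18 in G6, and its estimate in F7 was 0.33 ± 0.17. KLF6 changed by 0.53 ± 0.08 in C6 and 0.46 ± 0.08 in G6, and its estimate in F7 was 0.04 ± 0.08. MYC was closest among the clones, with 0.57 ± 0.17, 0.48 ± 0.16 (not called) and 0.58 ± 0.17 in C6, F7 and G6.

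The F test of a difference between clones called none of the 10 for topotecan, against 0.137% of all genes. EGR1 and KLF6 had an unadjusted p under 0.05, and KLF6 had the smallest adjusted p (0.0607, edgeR). KLF6 was called with DESeq2 (adjusted p = 0.0158), and its adjusted p ranged from 5.57e-04 to 0.687 over 32 settings, in 10 of which it was called.

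The comparison of OL9-119 with DMSO asks what the second compound does alone, and it uses the same DMSO libraries as that of topotecan. MYC, KLF4 and KLF6 rose and EGR3 fell, 4 of 10 genes, where 9.47% of all genes were called (4.47% higher, 5% lower). Of the short genes 4.45% were called higher and 6.69% lower. MYC rose by 0.50 ± 0.10 (1.41-fold), KLF4 by 0.42 ± 0.06 (1.34-fold) and KLF6 by 0.32 ± 0.05 (1.25-fold). The median over the 10 genes was 0.10, against 0.01 over all genes.

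KLF4 in C6 had 59.9, 61.7, 63.9 and 61.0 CPM with OL9-119, against 34.3, 33.6, 37.9 and 34.7 CPM in DMSO. In F7 it had 81.8, 78.2, 80.7 and 83.4 CPM with OL9-119, against 69.8, 66.6, 70.5 and 69.7 CPM in DMSO. The OL9-119 libraries were above the DMSO libraries in both clones, with a wider gap in C6. In G6 (53.6, 68.6, 72.8 and 73.4 CPM, against 62.9, 55.1, 51.8 and 57.3 CPM) they overlapped. The changes within clones were 0.81 ± 0.12 in C6 (called), 0.23 ± 0.11 in F7 and 0.24 ± 0.11 in G6, and the adjusted p over the 3 clones was 2.12e-06. The difference between clones was not called (unadjusted p = 5.81e-04, adjusted p = 0.694, edgeR).

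KLF6 is the gene of the set that OL9-119 raised in each clone, by 0.31 ± 0.08 in C6, 0.29 ± 0.08 in F7 and 0.36 ± 0.08 in G6 (adjusted p = 0.0143, 0.0429 and 0.00382, edgeR). In F7, its 4 values were 125.9, 119.9, 118 and 115 CPM with OL9-119, against 98.6, 97.4, 93.4 and 101.2 CPM in DMSO. The OL9-119 libraries stood above all DMSO libraries in each of the 3 clones. MYC in F7 had 39.1, 35.7, 32.4 and 35.4 CPM with OL9-119, against 19.8, 22.5, 22.9 and 21.3 CPM in DMSO, again with no overlap. MYC rose by 0.72 ± 0.16 in F7, with estimates of 0.52 ± 0.17 in C6 and 0.25 ± 0.17 in G6 that were not called. Members called within a clone numbered 2 in C6, 2 in F7 and 1 in G6, where 3.25%, 1.05% and 1.86% of all genes were called.

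EGR3 fell by 0.41 ± 0.12, with an adjusted p of 0.0141 (edgeR). Over the 12 libraries its lowest, median and highest were 4.37, 7.18 and 10.4 CPM with OL9-119, against 6.15, 9.003 and 15.8 CPM in DMSO. The call rested on single libraries: it was -0.33 (adjusted p = 0.0591) without C6 DMSO replicate 1, -0.31 (0.0712) without G6 DMSO replicate 1 and -0.17 (0.261) without the low-detection libraries. It was also lost without the filter on low counts (0.0573) and when only the groups compared were fitted (0.0517). EGR1 had an estimate of -0.25 ± 0.10 (adjusted p = 0.1246), which passed without C6 DMSO replicate 4 (-0.32, 0.0226) and with the replicate block or detected genes in the model. IER2 (0.15 ± 0.13), KLF10 (0.10 ± 0.06), IER5 (-0.06 ± 0.09), KLF2 (0.10 ± 0.17) and EGR2 (-0.07 ± 0.18) did not pass. With detected genes in the model KLF10 (0.13, adjusted p = 0.0141, edgeR) and IER5 (-0.12, 0.0461) passed. IER2 passed without the low-detection libraries (0.26, 0.0470).

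The combination was set against the same DMSO libraries. With both compounds MYC, KLF6, KLF4, IER2 and KLF10 rose, 5 of the 10, and none fell, where 21.2% of all genes were called (9.52% higher, 11.7% lower). Of the short genes 13.5% were called higher and 6.72% lower. MYC rose by 0.92 ± 0.10 (1.89-fold), KLF6 by 0.55 ± 0.05 (1.46-fold) and KLF4 by 0.54 ± 0.07 (1.45-fold). EGR1, which topotecan alone raised, had an estimate of 0.00 ± 0.10 with an interval of -0.20 to 0.21. The median over the 10 genes was 0.35, against -0.01 over all genes.

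MYC in F7 had 45.3, 38.6, 39.4 and 42.7 CPM with the combination, against 19.8, 22.5, 22.9 and 21.3 CPM in DMSO. In C6 it had 38.8, 15.7, 33.3 and 39.8 CPM with the combination, against 17.3, 13.5, 17.3 and 12.7 CPM in DMSO. In G6 it had 19.2, 26.7, 27.0 and 27.8 CPM with the combination, against 16.5, 13.2, 15.9 and 14.9 CPM in DMSO. Replicate 2 of the C6 combination, a low-detection library, was the only combination library within the DMSO range of its clone. MYC rose by 1.09 ± 0.17 in C6, 0.94 ± 0.16 in F7 and 0.73 ± 0.17 in G6, each called, and its adjusted p over the clones was 2.83e-11 (edgeR).

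KLF6 had a lowest, median and highest of 112, 125.5 and 147 CPM over the 12 combination libraries, against 72.1, 84.1 and 101.2 CPM in DMSO. No combination library overlapped any DMSO library of any clone (adjusted p = 1.01e-14, edgeR). KLF6 rose by 0.76 ± 0.08 in C6, 0.34 ± 0.08 in F7 and 0.55 ± 0.08 in G6. KLF4 rose by 0.88 ± 0.12 in C6 and 0.41 ± 0.11 in F7, with 0.32 ± 0.11 in G6 (not called), and its adjusted p over the clones was 2.24e-09. For the combination, the F test of a difference between clones called neither KLF4 nor KLF6. Their unadjusted p were 0.00222 and 0.00229 and their adjusted p 0.415 each (edgeR). KLF10 rose by 0.36 ± 0.06 (adjusted p = 2.76e-06) and its 12 combination libraries ran from 127.8 to 178 CPM, against 100.6 to 134 CPM in DMSO.

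IER2 rose by 0.43 ± 0.13 (1.35-fold, adjusted p = 0.00994, edgeR), with no clone called by itself. Over the 12 libraries it had 84.9, 119 and 179 CPM (lowest, median, highest) with the combination, against 58.2, 91.3 and 129 CPM in DMSO, and the groups overlapped. The calls of these 5 genes held in all 32 alternatives tried. KLF2 (0.34 ± 0.17, adjusted p = 0.156), EGR2 (0.15 ± 0.18), EGR3 (0.12 ± 0.12) and IER5 (-0.07 ± 0.09) did not pass. Of the 10 genes, 4 were called in C6, 3 in F7 and 3 in G6, where 9.02%, 4.08% and 9.49% of all genes were called.

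**Figure D2:**
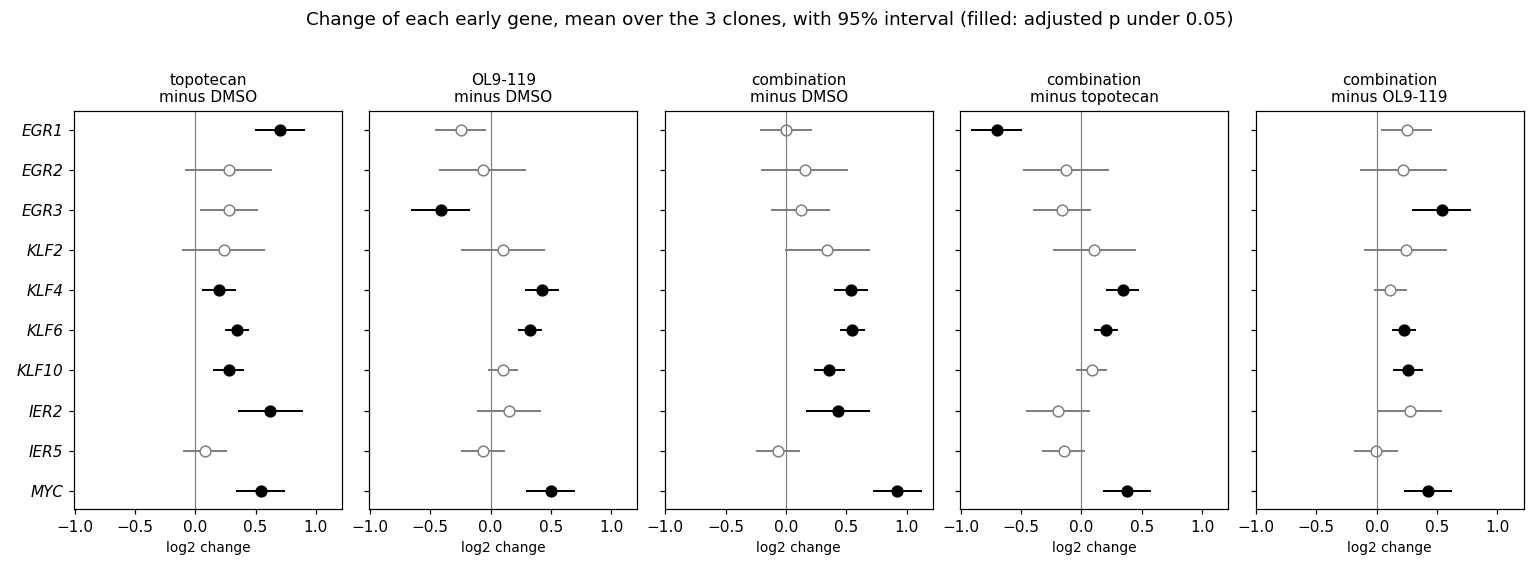
Log2 change of each of the 10 genes (rows), averaged over the 3 clones, in 5 comparisons (panels), with 95% intervals and filled symbols where the adjusted p was under 0.05. EGR1 lies at 0.70 for topotecan minus DMSO, at 0.00 for the combination minus DMSO and at -0.70 for the combination minus topotecan, whereas MYC and KLF6 lie right of 0 in all 5 panels.

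The comparison of the combination with topotecan asks what OL9-119 changes in cells that already receive topotecan. EGR1 fell and KLF4, MYC and KLF6 rose, 4 of 10 genes, where 6.78% of all genes were called (3.33% higher, 3.45% lower) and, of the short genes, 2.66% higher and 7% lower. EGR1 fell by 0.70 ± 0.10 on the log2 scale (0.62-fold, adjusted p = 9.20e-07, edgeR). MYC rose by 0.38 ± 0.09 (adjusted p = 0.00626), KLF4 by 0.34 ± 0.06 (1.86e-04) and KLF6 by 0.21 ± 0.05 (0.00155).

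EGR1 had 61.4, 59.8, 63.6 and 57.8 CPM with the combination in C6, against the 73.7 to 136 CPM of topotecan alone. In F7 it had 36.5, 37.7, 39.04 and 39.4 CPM with the combination, against 46.9 to 58.5 CPM with topotecan. In G6 it had 37.5, 29.1, 45.2 and 39.3 CPM with the combination, against 46.9 to 79.2 CPM with topotecan. Every combination library lay below every topotecan library of its clone. The change was -0.88 ± 0.17 in C6 and -0.78 ± 0.17 in G6, both called, and the estimate in F7 was -0.44 ± 0.17 (adjusted p = 0.399).

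EGR3 (-0.16 ± 0.12), IER2 (-0.19 ± 0.13), IER5 (-0.15 ± 0.09), EGR2 (-0.12 ± 0.17), KLF10 (0.08 ± 0.06) and KLF2 (0.11 ± 0.17) did not pass. The KLF6 call was lost without the filter on low counts (0.20, adjusted p = 0.0741), where 41553 genes were tested. In C6, KLF4 rose and EGR1 fell, in F7 KLF6 rose and in G6 EGR1 fell, where 1.63%, 0.922% and 0.543% of all genes were called.

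When topotecan was added to OL9-119 (the combination against OL9-119), EGR3, MYC, KLF10 and KLF6 rose, 4 of the 10, and none fell, where 12.7% of all genes were called (5% higher, 7.72% lower). Of the short genes 9.07% were called higher and 1.19% lower. EGR3 rose by 0.54 ± 0.12 (1.45-fold, adjusted p = 5.56e-04, edgeR). In G6 EGR3 had 11.5, 10.8, 11.4 and 11.4 CPM with the combination, against 5.23, 7.39, 6.98 and 8.49 CPM with OL9-119, and the groups did not overlap. In F7 it had 12.9, 13.6, 13.6 and 10.4 CPM with the combination, against 10.1, 9.64, 9.09 and 10.4 CPM with OL9-119, and the lowest combination library lay within the range of OL9-119.

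MYC rose by 0.42 ± 0.09, KLF10 by 0.26 ± 0.06 and KLF6 by 0.23 ± 0.05 (adjusted p = 6.94e-04, 9.37e-04 and 1.42e-04, edgeR). In C6, MYC, KLF6 and KLF10 were called, in G6 EGR3 and KLF10, and in F7 none (edgeR, smallest adjusted p 0.818, 0 genes at an unadjusted p under 0.05), where 5.07%, 6.52% and 1.47% of all genes were called. EGR1 (0.25 ± 0.10, adjusted p = 0.104) and IER2 (0.28 ± 0.13, 0.164) did not pass, and each passed with the replicate block (EGR1 0.26, 0.0199, and IER2 0.30, 0.00753), without the filter on low counts, and with detected genes in the model (IER2 0.40, 1.26e-06).

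Set directly against each other at the doses used, topotecan and OL9-119 differed in 5 of the 10 genes, where 22.7% of all genes were called (10.2% higher with topotecan, 12.5% lower), and of the short genes 20.2% were higher and 2.87% lower. EGR1 (by 0.95 ± 0.10, 1.93-fold), EGR3 (0.70 ± 0.12), IER2 (0.47 ± 0.13) and KLF10 (0.17 ± 0.06) were higher with topotecan, and KLF4 was lower (-0.23 ± 0.06). The adjusted p were 3.18e-11, 3.16e-06, 0.00404, 0.0232 and 0.00519 in that order (edgeR). EGR1 and EGR3 separated topotecan from OL9-119 libraries without overlap in each of the 3 clones. MYC (0.05 ± 0.09, interval -0.14 to 0.23) and KLF6 (0.02 ± 0.05, interval -0.07 to 0.11) did not pass. Their intervals bound only the mean difference over the 3 clones at 100 nM and 5 µM, in which opposite changes would cancel. Within clones, the estimate of KLF6 was 0.22 in C6 and -0.25 in F7, and that of MYC was -0.24 in F7 and 0.33 in G6. KLF6 in G6 averaged 116 CPM with topotecan and 108 CPM with OL9-119, and MYC in C6 averaged 22.5 and 21.6 CPM, with overlap in both. Whether the clones differed in this comparison was not tested. The KLF10 call was lost without C6 OL9-119 replicate 2, F7 OL9-119 replicate 3, G6 OL9-119 replicate 4 or C6 topotecan replicate 4 (adjusted p 0.0510 to 0.0798).

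The interaction asks whether the combination departs from the sum of both log2 changes. It called none of the 10 genes (edgeR), with 1 at an unadjusted p under 0.05 and none with DESeq2, where 0.0316% of all genes were called. EGR1 had the estimate farthest from 0, at -0.45 ± 0.14 (interval -0.74 to -0.17, adjusted p = 0.684), with -0.62 in C6, -0.36 in F7 and -0.38 in G6. MYC had -0.12 ± 0.13, KLF6 -0.12 ± 0.06 and KLF4 -0.08 ± 0.09.

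In DMSO against no treatment, none of the 10 genes was called (edgeR), 1 had an unadjusted p under 0.05 and none passed with DESeq2, where 0.0158% of all genes were called. EGR1 had 28.4, 40.95 and 79.1 CPM (lowest, median, highest) in DMSO, against 23.4, 39.7 and 60.6 CPM untreated, and the estimate was 0.20 ± 0.10 (adjusted p = 0.982). KLF6 had 72.1, 84.1 and 101.2 CPM in DMSO, against 75.6, 91.9 and 112 CPM untreated.

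**Figure D3:**
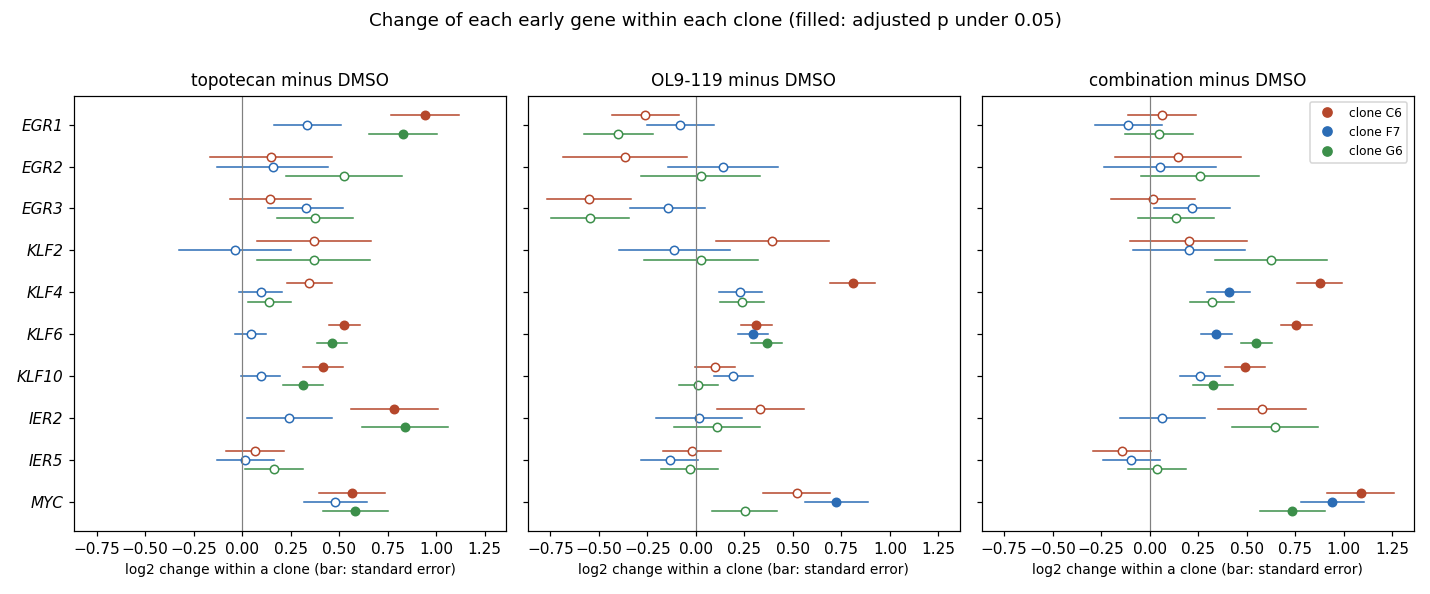
Log2 change of each of the 10 genes (rows) within clones C6, F7 and G6 in 3 comparisons with DMSO (panels: topotecan, OL9-119, combination), with standard errors, and filled symbols where the adjusted p was under 0.05. No gene is filled for F7 under topotecan, KLF6 is filled in all 3 clones under OL9-119, and MYC and KLF6 are filled in all 3 under the combination.

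The clones differed in DMSO, before any compound was added. C6 had lower KLF4 than both other clones, a call that held without any single DMSO library. Against F7, 7 genes differed (39.5% of all genes were called, 20.4% higher in C6 and 19.2% lower): EGR1 was higher in C6 by 0.49 ± 0.17, and KLF4 (-0.97 ± 0.11), IER2 (-0.73 ± 0.22), IER5 (-0.63 ± 0.15), EGR3 (-0.52 ± 0.20), MYC (-0.51 ± 0.17) and KLF6 (-0.37 ± 0.08) were lower. Against G6, 3 differed (24.4%, with 11.6% higher in C6 and 12.8% lower): EGR1 by 0.67 ± 0.18, KLF4 by -0.69 ± 0.12 and IER5 by -0.40 ± 0.15. F7 was higher than G6 in MYC by 0.51 ± 0.17 and in KLF6 by 0.22 ± 0.08 (17.1% of all genes called, 6.89% higher in F7 and 10.2% lower, edgeR).

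KLF4 is the clearest case: C6 had 34.3, 33.6, 37.9 and 34.7 CPM in DMSO, against 69.8, 66.6, 70.5 and 69.7 CPM in F7 and 62.9, 55.1, 51.8 and 57.3 CPM in G6, with no overlap between C6 and the other clones. Several of the other calls between clones were lost when 1 DMSO library was left out (edgeR). EGR1 of C6 against F7 was 0.29 (adjusted p = 0.195) without C6 replicate 3, at 79.1 CPM, and was also lost without F7 replicate 3 or 4, and EGR1 of C6 against G6 was 0.46 (0.0573) without C6 replicate 3. EGR3 of C6 against F7 was lost without C6 replicate 2, 3 or 4 or F7 replicate 2 or 4 (adjusted p up to 0.135) and without the filter on low counts (0.0784), and MYC of the same clones without C6 replicate 4 (0.0787). IER5 of C6 against G6 was lost without C6 replicate 1, 2 or 4 or G6 replicate 3 or 4 (up to 0.225). KLF6 of F7 against G6, with an adjusted p of 0.0459, was lost without any of the 8 libraries except G6 replicate 1 (up to 0.121) and without the filter on low counts (0.221), and MYC of F7 against G6 without F7 replicate 2 or 3 or G6 replicate 2 (up to 0.0924). Fitted on the groups compared alone, EGR1 (adjusted p = 0.0505) and EGR3 (0.0564) of C6 against F7, IER5 of C6 against G6 (0.0921) and KLF6 of F7 against G6 (0.0713) were not called, nor was EGR1 of C6 against F7 without the low-detection libraries (0.0589). With detected genes in the model the C6 to F7 difference of IER2 was 0.05 (adjusted p = 0.784), that of IER5 -0.09 (0.418) and that of MYC -0.16 (0.470), and the F7 to G6 difference of MYC was 0.26 (0.230). Some differences that were not called passed in other fits (edgeR, and for EGR2 and KLF4 also DESeq2). EGR2 of C6 against F7 (-0.71 ± 0.31, adjusted p = 0.0596) passed in 4 of 7, down to 0.0101. KLF4 of F7 against G6 (0.28 ± 0.11, 0.0727) passed in 4 of 7, down to 0.00201. IER2 of F7 against G6 (0.47 ± 0.22, 0.141) passed without the filter on low counts (5.72e-04). With detected genes in the model KLF10 passed for C6 against F7 (-0.41, 1.13e-05) and G6 (-0.22, 0.00964). The C6 DMSO group held 2 low-detection libraries, that of F7 none and that of G6 1.

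Replicates of a group were compared next. After the mean of each group was subtracted, IER2 and IER5 varied together over the 60 libraries (Pearson r 0.87, Spearman rho 0.89, permutation p = 1e-05 each, the smallest that 100000 permutations within groups can give, adjusted p 1.5e-04 over 45 pairs). Within the 3 prefixes of the library names r was 0.79, 0.93 and 0.89, and without the 2 libraries farthest from the median of IER2 it was 0.89. KLF10 varied against both, with r of -0.78 to IER2 and -0.75 to IER5. Of the 45 pairs 20 had an adjusted p under 0.05, 12 of them positive. Pairs of genes outside the set were not examined, so no share over all genes stands beside this count. EGR1 stood outside this pattern, with r of 0.28 to IER2 and 0.01 to IER5, as did EGR3, with 0.003 and -0.16.

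The same deviations followed the number of detected genes at a common depth. Among 30 relations of the 10 genes to 3 library measures, r to detected genes was 0.89 for IER5 (rho 0.88, 0.89 without the 2 libraries farthest from the median, and 0.84, 0.91 and 0.94 within the prefixes), 0.84 for IER2 (rho 0.83, 0.83 without the 2 libraries farthest from the median, and 0.82, 0.87 and 0.87 within the prefixes) and -0.80 for KLF10 (rho -0.77, -0.76 without the 2 libraries farthest from the median, and -0.80, -0.76 and -0.85 within the prefixes), with a permutation p of 1e-05 each for r, the smallest possible, and 6e-05 adjusted. It was 0.06 for EGR1 (rho 0.08, 0.08 without the 2 libraries farthest from the median, and -0.20, 0.10 and 0.21 within the prefixes), with a permutation p of 0.730. Of the 10 genes 8 were related to detected genes at an adjusted p under 0.05, all but EGR1 and EGR3. Genes outside the set were not examined in this way, so whether this share is particular to the set was not tested. MYC (r 0.56), KLF4 (0.51), KLF2 (0.58) and EGR2 (0.53) were higher in libraries with more detected genes, and KLF6 was lower (-0.55), with adjusted p of 3.9e-04 to 0.00283 for these 5. KLF6 also had r of -0.69 to the log2 library total (permutation p = 1e-05, the smallest possible, adjusted p 6e-05), and IER5 (0.49) and KLF2 (0.45) had positive r to it. With detected genes in the model, the changes of KLF6, MYC and KLF4 against DMSO were 0.36, 0.50 and 0.16 for topotecan, 0.34, 0.46 and 0.40 for OL9-119, and 0.55, 0.92 and 0.53 for the combination, all called (edgeR, largest adjusted p 0.0252, for KLF4 with topotecan).

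**Figure D4:**
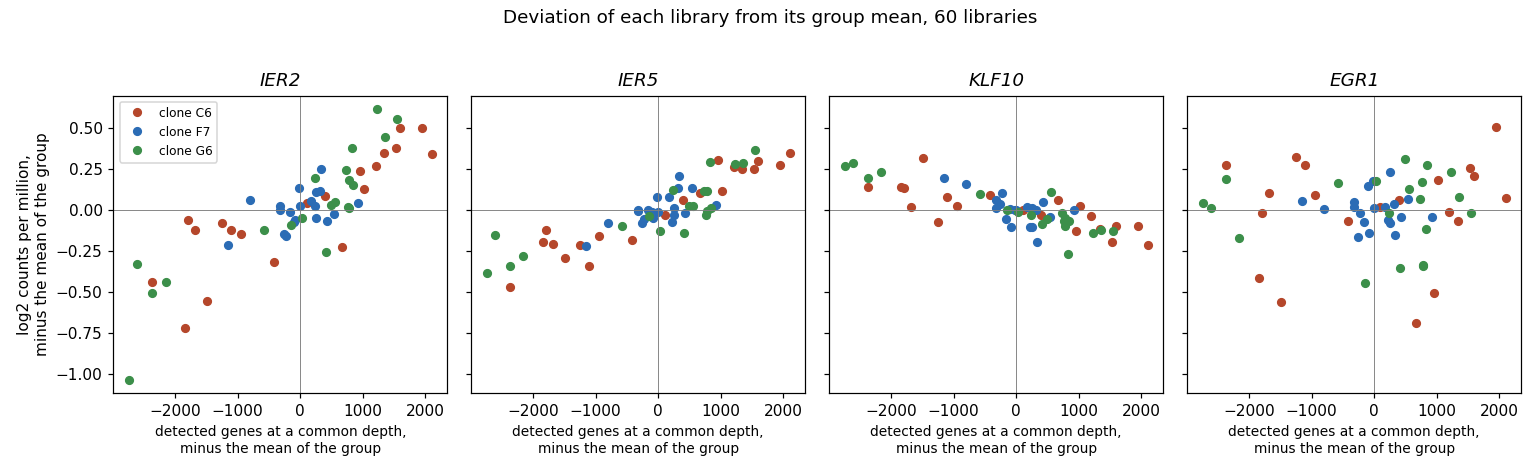
Deviation of each of the 60 libraries from its group mean, as log2 CPM of IER2, IER5, KLF10 and EGR1 (vertical axis) against genes detected at the common depth (horizontal axis), coloured by clone. IER2 and IER5 climb to the right (r 0.84 and 0.89), KLF10 declines (r -0.80) and EGR1 shows no slope (r 0.06), and F7 libraries cluster near the centre.

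Genes of the same pathways were followed as lists. Of all genes tested, 15.3% were called with topotecan, 9.47% with OL9-119 and 21.2% with the combination, each minus DMSO. In the combination 6.78% were called against topotecan and 12.7% against OL9-119. Of 24 other early genes, all tested, 14 rose and 1 fell with topotecan (median log2 change 0.33), among them ATF3 (0.94 ± 0.04), JUN (0.91 ± 0.06), the eIF2alpha phosphatase subunit PPP1R15A (0.70 ± 0.05) and the MAP kinase phosphatase DUSP1 (0.58 ± 0.06). With OL9-119 5 rose and 5 fell (median -0.03), ATF3 rising by 0.72 ± 0.04 and the matricellular gene CCN1 falling by 0.65 on the log2 scale. With the combination against DMSO 11 rose and 2 fell (median 0.26), and CCN2 fell by 0.96. Against topotecan alone, the combination raised 3 and lowered 6, and CCN1 (-0.61 ± 0.06), CCN2 (-0.66 ± 0.08) and FOSL1 (-0.50 ± 0.10) were lower beside EGR1. Against OL9-119 alone, 14 rose and 2 fell, JUNB by 0.85 ± 0.13. IER3, a relative of IER2 by name, rose by 1.18 ± 0.06 with topotecan, 0.24 ± 0.06 with OL9-119 and 1.35 ± 0.06 with the combination against DMSO (edgeR).

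Of 14 genes for serum response factor, ternary complex factors and MAP kinases, none rose and 4 fell with topotecan, among them the SRF coactivator MRTFB (-0.40 ± 0.07) and the ternary complex factor ELK3 (-0.26 ± 0.09). With OL9-119 none rose and 3 fell, SRF by 0.32 and MAPKAPK2 by 0.22 on the log2 scale. With the combination 1 rose and 6 fell against DMSO. Of all genes, 9.35% were called lower with topotecan, 5% with OL9-119 and 11.7% with the combination. SRF was the gene of the list called in the combination against topotecan, at -0.40 ± 0.09 (adjusted p = 0.00149, edgeR), where 6.78% of all genes were called. A link between the levels of SRF and EGR1 was not tested.

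Of 13 other KLF genes, 11 were tested. Against DMSO 2 were called with topotecan, 4 with OL9-119 and 4 with the combination, where 15.3%, 9.47% and 21.2% of all genes were called. Topotecan raised KLF11 (0.21 ± 0.06) and lowered KLF12 (-1.07 ± 0.11), and OL9-119 raised KLF15 (0.65 ± 0.15), KLF7 (0.43 ± 0.13) and KLF9 (0.29 ± 0.08) and lowered KLF5 (-0.29 ± 0.09). The combination raised 3 and lowered 1 against DMSO, KLF11 by 0.42 ± 0.06. Of 3 tested EGR relatives and corepressors, WT1 rose with topotecan (0.28 ± 0.09) and none was called with OL9-119 or with the combination against DMSO (edgeR, 0 at an unadjusted p under 0.05 and 0 with DESeq2 in either).

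MYC mRNA rose in all 3 comparisons with DMSO. The counts called in the lists around it stand beside those of all genes tested. Of these 15.3% were called with topotecan, 9.47% with OL9-119 and 21.2% with the combination. Of 12 MYC network genes, topotecan raised MXD1 (0.32 ± 0.09) and lowered MGA (-0.27 ± 0.09), OL9-119 called none (edgeR, 1 at an unadjusted p under 0.05 and 1 with DESeq2) and the combination raised MXD1 (0.42 ± 0.09). Of 21 genes listed as activated by MYC, 4 rose and 2 fell with topotecan (NOP56 0.26 ± 0.04, NOLC1 0.21 ± 0.04), 3 rose and 2 fell with OL9-119 (TFRC 0.81 ± 0.06, ODC1 -0.19 ± 0.04), and 4 rose and 4 fell with the combination (TFRC 0.88 ± 0.06, EIF4E -0.42 ± 0.08). Their medians were 0.08, -0.04 and -0.02. Of 4 genes listed as repressed by MYC, 3 rose and 1 fell with topotecan, 2 rose and 1 fell with OL9-119, and 2 rose and 1 fell with the combination, each against DMSO (medians 0.35, 0.16 and 0.38). The stress gene NDRG1 fell with topotecan (-0.42 ± 0.09) and with the combination (-0.40 ± 0.09). The cell cycle inhibitor CDKN1A rose with topotecan (0.19 ± 0.05) and fell with OL9-119 (-0.17 ± 0.05). GADD45A rose by 0.74 ± 0.05, 0.42 ± 0.05 and 0.90 ± 0.05, and CDKN2B by 0.51 ± 0.06, 0.27 ± 0.06 and 0.72 ± 0.06, with topotecan, OL9-119 and the combination.

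IER5 did not pass in any of these comparisons in the fit of group means alone. With detected genes in the model it passed for OL9-119 minus DMSO (-0.12, adjusted p = 0.0461, edgeR) and for topotecan minus OL9-119 (0.14, 0.00670). Beside it, 10 chaperone genes activated by HSF1 were followed. None was called with topotecan (edgeR, 2 at an unadjusted p under 0.05 and 0 with DESeq2). Against DMSO 8 fell with OL9-119 and 8 with the combination, where 5% and 11.7% of all genes were called lower. HSPA8 fell by 1.08 on the log2 scale with OL9-119, HSPA1B by 1.09 and the co-chaperone DNAJB1 by 0.48. In the combination against topotecan 6 fell (3.45% of all genes were called lower), HSPA8 by 0.96.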

How the data were processed

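The deposited table holds counts, whole numbers of reads per Ensembl gene and library, not normalised. Per the labels' protocols, poly(A) RNA was enriched and directional libraries were made. Per the submitters' processing notes, STAR 2.7.8 and the build hg38 were used, with Picard 2.26.6 and FastQC 0.11.9. Which tool counted the reads, and whether it used strand, is not given in the sources used here. The counts were tested with edgeR 4.0.16 in R 4.3.3: TMM scaling, filterByExpr on the 15 groups, 1 mean per group over all 60 libraries (45 residual degrees of freedom), a 2-sided quasi-likelihood F test, Benjamini-Hochberg over 18985 genes and a threshold of 0.05. Treatment changes are means of the 3 within-clone differences. CPM values are scaled by the TMM-adjusted library total. The error given with ± is the SE of a log2 change and the SD of a level. The scripts were tested on simulated data. DESeq2 1.42.0, other scaling, filters, blocks and left-out libraries were the alternatives, and a term for detected genes at a common depth was added after seeing the data. Correlations were permuted within groups (numpy 2.4.6, scipy 1.17.1).

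All 10 genes are named, and of each other list up to 4 passing genes with the smallest p in a comparison. One gene of the lists is not reported here. The genes and the lists were chosen with earlier results of these data known. At 4623685 to 20932497 counts per library, EGR2 and KLF2 had few counts (9 each in their lowest library). Both also varied with detected genes (r 0.53 and 0.58), and how much of their spread is counting error was not tested. All replicates of a group differed beyond counting error (variance 2.31 to 58.9 times that of counting over 90 pairs) and were kept as separate samples.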

Additional observations from a re-analysis of the deposited data

Results flagged for a closer look

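In 9 of the 150 sets of 4 libraries (10 genes by 15 groups), 1 library lay far from the other 3. Chance flags about 1 in 20 such sets, and 7 of the 9 values belong to low-detection libraries. EGR3 stood at 11.6 CPM in C6 DMSO replicate 1 and at 15.8 CPM in G6 DMSO replicate 1, above the other replicates of its group, which bears on the EGR3 results against DMSO. EGR3 in G6 combination replicate 2 was the lowest of its group at 10.8 CPM. EGR2 was highest in G6 untreated replicate 1, at 7.61 CPM. IER2 was highest in C6 DMSO replicate 3, at 99.2 CPM, and KLF10 was highest in G6 combination replicate 1, at 178 CPM. MYC was lowest in C6 topotecan replicate 4 (17.4 CPM), in G6 combination replicate 1 (19.2 CPM) and in G6 untreated replicate 1 (10.8 CPM).

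For topotecan minus OL9-119, KLF6 was higher with topotecan in every library of C6 (log2 change 0.22) and lower in every library of F7 (-0.25). MYC was lower with topotecan in every library of F7 (-0.24) and higher in every library of G6 (0.33). In both cases the difference between the clones was not tested.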

How the results depend on the processing

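The calls of MYC, KLF6, KLF4, KLF10 and IER2 for the combination against DMSO held in all 32 alternatives. Without the filter on low counts the interaction called 1 gene of the set (EGR1, -0.47, adjusted p = 0.0248, edgeR). The dependence of topotecan on the clone called 1 gene (KLF6) with DESeq2, with the replicate block and without the low-detection libraries, and 2 (KLF6 and KLF10) with detected genes as a term. That term also gave 7 called genes for OL9-119 minus DMSO, where 3320 of all 18985 genes were called. It gave 5 for C6 minus G6 (6275 over all genes) and 1 (KLF4) for the dependence of the combination on the clone (67 over all genes). It turned IER2 in C6 minus F7 to 0.054 (adjusted p = 0.784) and KLF10 in F7 minus G6 to 0.19 (0.0466). The cause was not tested. Leaving out 1 library at a time gave 5 to 7 called genes for topotecan, 3 to 5 for OL9-119 and 5 for the combination, each minus DMSO, 4 for the combination minus topotecan and minus OL9-119, 4 to 5 for topotecan minus OL9-119, 5 to 8 for C6 minus F7, 2 to 3 for C6 minus G6, 0 to 3 for F7 minus G6 and 0 to 1 for the dependence of topotecan on the clone.

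Over all genes, counts beyond 1.5 times the one reported were 2455 (replicate block) and 2255 (detected genes) against 1287 for the combination minus topotecan, 2820 (without the low-detection libraries) and 3320 (detected genes) against 1798 for OL9-119 minus DMSO, 3732 (detected genes) against 2415 for the combination minus OL9-119, and 2370 (only the groups compared) against 4635 for C6 minus G6. The interaction had 40 (no filter on low counts), 14 (replicate block), 14 (DESeq2) and 15 (detected genes) against 6. The dependence of topotecan on the clone had 52 (without the low-detection libraries), 47 (DESeq2) and 59 (detected genes) against 26. DMSO minus no treatment had 13 (no filter), 11 (replicate block), 16 (DESeq2), 25 (detected genes) and 0 (without the low-detection libraries, and only the groups compared) against 3. The replicate numbers were not taken as pairs, since no comparison had a correlation of deviations over 0.1 in every same-numbered pair: 3 (topotecan and DMSO, combination and topotecan) to 8 (topotecan and OL9-119) of 12 pairs had one, the highest being 0.44. The labels do not call equal numbers a pair, but libraries of a clone with the same number share the prefix of the library name. In the data, a library was closest to its own number in 48 of 84 matches, libraries recurring across comparisons. Each match had 4 candidates, so a random choice would hit 1 in 4. Part of the libraries may thus be paired by number, which the fit without a block ignores. With the replicate block, EGR1 was also called for OL9-119 minus DMSO (-0.24, adjusted p = 0.0358) and for the combination minus OL9-119 (0.26, 0.0199), as was IER2 (0.30, 0.00753).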

Other observations

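Over the 15 group means, centred within each clone, the protein-coding genes whose pattern was most like each of the set were taken from 11638 candidates. EGR1 was followed most closely by POLR2C (r 0.94), TNFRSF12A (0.94) and CDC25A (0.93). KLF6 was followed by CCNB1IP1 (0.97), ATF3 (0.97) and ZMYM5 (0.97), and MYC by CCDC174 (0.97), SRSF6 (0.97) and CMTR2 (0.97). IER2 was followed by ZNF622 (0.98), NFKB2 (0.97) and SNAPC4 (0.97), KLF4 by SIAH2 (0.96), NBPF9 (0.96) and ZFP69B (0.95), and KLF10 by NECAP1 (0.98), PNPLA8 (0.97) and CDKN2AIP (0.96). EGR3 was followed by FAM217B, CDK2 and SPATA5L1 (0.95, 0.95 and 0.94), IER5 by CKB, TSEN34 and FSCN1 (each 0.95), KLF2 by SYVN1 (0.92), NAT9 (0.91) and DUSP28 (0.90), and EGR2 by VGLL3 (0.89), GBP2 (0.87) and KDELR3 (0.87). These are descriptions over the same libraries.

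Within the set, KLF6 and MYC had group means with r of 0.90 to each other, and KLF6 and KLF10 also 0.90. EGR1 and EGR3 had 0.80, EGR1 and KLF4 -0.06, and IER5 had -0.53 to KLF4 and -0.34 to MYC. All 15 points share their libraries and scaling.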
